A study of Mus musculus with 2 samples.

Results

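Glucocorticoids act on muscle in steps, and 9 genes that mark those steps were followed across the cells of regenerating mouse muscle. Hsd11b1 encodes the reductase of the endoplasmic reticulum that regenerates active glucocorticoid from its inactive keto form inside the cell, and Nr3c1 encodes the glucocorticoid receptor. Fkbp5, Tsc22d3, Per1, Zbtb16 and Sgk1 are genes that the receptor is known to induce, and the metallothioneins Mt1 and Mt2 are induced by glucocorticoid, by zinc and other metals and by cytokines. In skeletal muscle this hormone is known for driving protein breakdown in fibers and for favoring adipocyte formation from fibro-adipogenic progenitors (FAPs), the mesenchymal cells that lie between fibers. The 9 genes were taken by name, and all 9 were found among the 19169 genes of the expression table.

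The samples were 1 library from wild-type C57BL/6J mice (WT) and 1 library from mice with a global deletion of Gsdme (KO), the gene of the pore-forming protein gasdermin E. The study used male mice, injected cardiotoxin (CTX), a snake venom toxin that destroys fibers, into the gastrocnemius under ketamine and xylazine, and took the muscle on day 14. Both groups were injured, so no uninjured muscle was compared, and the methods give 5 mice per genotype without saying whether their cells were pooled, and the age of the mice is not given in the sources used here. The WT library held 6354 cells and 44758518 unique molecular identifiers (UMIs, each 1 captured transcript) at a median of 5740 a cell, and the KO library 7078 cells and 50930009 UMIs at a median of 5963, with 4 cell barcodes present in both. Gsdme itself had 225 UMIs in WT, or 5.03 counts per 1000000 UMIs (CPM; 95% exact Poisson interval, 4.39 to 5.73), and 237 UMIs in KO, or 4.65 CPM (4.08 to 5.29). These intervals overlap, so the Gsdme transcript did not separate the libraries and gave no support for the KO label. KO below means the library labelled KO.

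Cell types were rebuilt from marker genes, since the table carries no annotation, and are therefore called X-like. Among 29 clusters, 13 cell types were named and 9 of them had at least 50 cells in each library; 1534 cells stayed without a name. The 9 were FAP-like cells (2113 in WT and 2530 in KO), endothelial-like (1343 and 1313), macrophage-like (861 and 1043), pericyte-like (328 and 381), muscle stem cell (MuSC)-like (249 and 248), smooth muscle-like (185 and 230), Schwann-like (196 and 156), dendritic-like (115 and 128) and T-like cells (81 and 86). Every marker of these types was above its level in the other cells in both libraries. Pericyte-like cells also held endothelial RNA: 6 endothelial markers summed to 5149 CPM in WT and 5668 CPM in KO, against 6900 and 7619 CPM in endothelial-like cells. Levels in pericyte-like cells are therefore not those of pericytes alone, and the part of endothelial RNA in them was not tested. A cluster counted as FAP-like, of 740 cells (400 in WT and 340 in KO), scored highest on tendon markers and had Fmod, Chad and Tnmd among its leading genes, as do FAPs-2-like cells. The study lists Fmod, Wif1 and Comp as markers of FAPs-2, so these cells were kept, and values for FAP-like cells without the FAPs-2-like subset are given where they change a call or a level. FAP-like cells were divided into subsets named after the study's markers, with the 9 genes kept out of the clustering. Hsd11b1 was not used to name FAPs-0-like cells although the study lists it as a marker of them. Mme and Enpp2 of the study's list were used, with Dlk1, which the study does not list for FAPs-0, in place of Hsd11b1.

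Levels are CPM, the UMIs of a gene per 1000000 UMIs summed over the cells of a type in 1 library, and differences between libraries are log2 ratios of KO over WT. Because each genotype is 1 library, there is no replicate check and no test of genotype, and the bracketed 95% intervals cover counting error only. A ratio was called past 1.5-fold when the gene had at least 50 UMIs in both libraries together. Orders of levels are among the 9 types. The types of a library share that library, so agreement among types is not agreement among replicates.

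The promoters of both metallothionein genes and of Sgk1 are shown first because these 3 genes carried the most UMIs of the 9, with Mt1 and Mt2 above and Sgk1 below the WT level in KO. Each is 250 bases before and the first 30 bases after a RefSeq transcription start on GRCm38.p6, plus strand, 5′ to 3′, with capitals on the motif named. In Mt1 (chr8:94178839-94179118) and Mt2 (chr8:94172368-94172647) the capitals mark metal response elements, written TGCACNC or TGCGCNC and searched on both strands, the sites through which zinc induces these genes. In Sgk1 (chr10:21993640-21993919, 1 of several starts of the gene) they mark a complete glucocorticoid response element, its arms AGAACA and TGTTCT with any 3 bases between them. The arms are the reverse complement of each other, so the site matches on both strands.
Mt1: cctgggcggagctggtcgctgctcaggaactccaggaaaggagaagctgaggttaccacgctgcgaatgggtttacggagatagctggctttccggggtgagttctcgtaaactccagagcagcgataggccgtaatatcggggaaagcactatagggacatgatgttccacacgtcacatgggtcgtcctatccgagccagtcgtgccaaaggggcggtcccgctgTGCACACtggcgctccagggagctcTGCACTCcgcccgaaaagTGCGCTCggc
Mt2: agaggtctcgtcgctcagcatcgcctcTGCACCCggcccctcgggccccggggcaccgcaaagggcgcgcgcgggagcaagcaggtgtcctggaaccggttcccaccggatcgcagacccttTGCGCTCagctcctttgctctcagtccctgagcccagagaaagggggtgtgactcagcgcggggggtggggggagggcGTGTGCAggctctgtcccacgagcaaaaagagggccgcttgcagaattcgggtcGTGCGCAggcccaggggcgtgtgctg
Sgk1: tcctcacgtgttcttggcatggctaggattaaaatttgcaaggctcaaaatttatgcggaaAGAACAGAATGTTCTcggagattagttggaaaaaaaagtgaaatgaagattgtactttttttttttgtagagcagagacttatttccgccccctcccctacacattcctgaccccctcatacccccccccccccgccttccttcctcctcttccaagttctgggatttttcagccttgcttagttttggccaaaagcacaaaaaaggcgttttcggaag

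The Mt1 window held 3 metal response elements and the Mt2 window 4, of which 2 read on the minus strand. At least 1 such element stood in 25.7% of 32851 RefSeq promoter windows of 300 bases, and 3 or more stood in 1.97% of them. The complete glucocorticoid response element stood in 3 of the 32851 windows, or 0.00913%, 1 of which is the Sgk1 window above. Of the 9 genes, 7 had at least 1 window, 15 windows in all. A match is a run of letters and not a bound site, and a window without one says nothing about elements elsewhere in the gene. On mm10 with GENCODE M21, Mt2 (chr8:94172664-94173568) and Mt1 (chr8:94179082-94180327) lie 5513 bases apart on the plus strand. Sgk1 spans chr10:21882184-21999903 and Per1 chr11:69095217-69109960, both on the plus strand. On the minus strand lie Hsd11b1 (chr1:193221634-193264075), Zbtb16 (chr9:48654297-48836222), Fkbp5 (chr17:28399094-28517527) and Tsc22d3 (chrX:140539528-140600659).

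Most Hsd11b1 UMIs lay in FAP-like and MuSC-like cells. Of all its UMIs, 76.9% in WT and 77.4% in KO lay in FAP-like cells and 10.1% and 11.8% in MuSC-like cells. Its level was 66.4 CPM (62.7 to 70.3) in WT and 58.5 CPM (55.4 to 61.7) in KO FAP-like cells, and 85.0 CPM (72.3 to 99.4) and 138 CPM (119 to 158) in MuSC-like cells. MuSC-like cells thus stood at or above FAP-like cells in each library. In WT this order did not hold once FAPs-2-like cells were left out of FAP-like cells, as given below. The next highest of the 9 types, T-like cells, had 31.4 CPM in WT and 27.6 CPM in KO from 12 and 11 UMIs. Endothelial-like cells were near the bottom at 1.59 and 1.81 CPM, macrophage-like cells had 3.54 and 6.21 CPM, and pericyte-like cells 9.39 and 5.44 CPM. Smooth muscle-like cells had 0 UMIs in WT and dendritic-like cells 0 in KO, against 7 UMIs and 8 UMIs in the other library. Outside the 9 types, NK-like cells (32 and 28) had 6 Hsd11b1 UMIs among 149471 in WT and 11 among 125520 in KO. That share in KO was above the FAP-like level. Neutrophil-like cells (26 and 33) had 4 UMIs among 149780 and 8 among 153229. B-like cells had 0 in each library, and mature muscle-like cells 0 and 1.

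The KO library was lower for Hsd11b1 in FAP-like cells, at a log2 ratio of -0.18 (-0.30 to -0.07), and higher in MuSC-like cells, at 0.70 (0.39 to 1.01). The MuSC-like ratio was past 1.5-fold and the FAP-like ratio was not. Without FAPs-2-like cells the FAP-like level was 90.9 CPM in WT and 70.9 CPM in KO and the ratio -0.36. In the 2 other types with enough UMIs the ratio was 0.81 (-0.05 to 1.73) in macrophage-like and -0.79 (-1.49 to -0.10) in pericyte-like cells, both past 1.5-fold, the first from 17 and 37 UMIs in WT and KO and the second from 47 and 31. RNA of FAPs was present in other types: the summed level of 6 FAP markers in MuSC-like cells was 4384 CPM in WT and 3981 CPM in KO, against 65376 and 61451 CPM in FAP-like cells. In macrophage-like cells that sum was 2622 and 3406 CPM and in pericyte-like cells 1125 and 786 CPM, and its part in the Hsd11b1 levels and ratios of these 3 types was not tested.

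**Figure D1:**
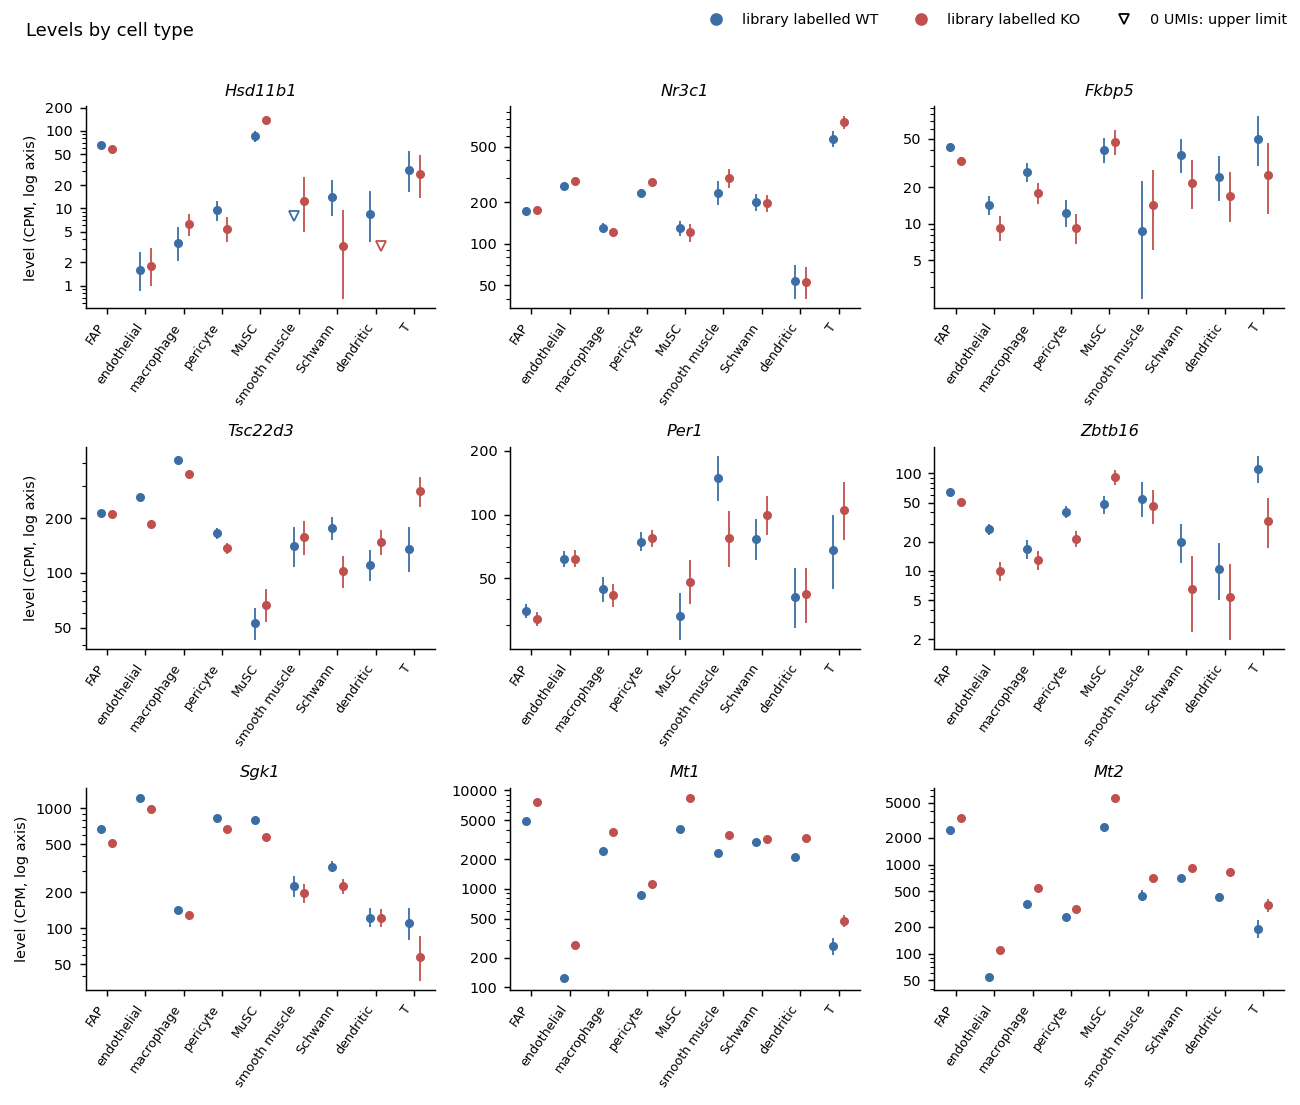
Level (CPM, log axis) of each of the 9 genes in the 9 cell types, WT and KO side by side, with points for the level and bars for the 95% Poisson interval, and open triangles for the upper limit where a type had 0 UMIs. Hsd11b1 is highest in MuSC-like and FAP-like cells, Nr3c1 is highest in T-like cells, and Mt1 and Mt2 are higher in KO in every type shown.

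Within FAP-like cells Hsd11b1 was concentrated in a pair of subsets. FAPs-0-like cells (288 in WT, 383 in KO) had 362 CPM (335 to 390) in WT and 225 CPM (209 to 243) in KO, and FAPs-1-like cells (652 and 881) had 82.2 CPM (74.8 to 90.2) and 61.1 CPM (55.8 to 66.7). These levels exceeded those of FAPs-3-like cells at 23.4 and 5.79 CPM, FAPs-6-like at 15 and 23.6 CPM, FAPs-4-like at 5.52 and 10.2 CPM and FAPs-2-like at 1.21 and 4.47 CPM. The log2 ratio of FAPs-0-like cells over all other FAP-like cells was 3.49 (3.32 to 3.66) in WT and 2.83 (2.67 to 2.99) in KO, which are descriptions, since clusters of the same cells were compared. The boundary between FAPs-0-like and FAPs-1-like cells moved with the clustering settings, so they were also joined: the joined cells held 72.2% of all Hsd11b1 UMIs of the WT library and 70.2% of those of the KO library. FAPs-0-like cells were led by G0s2, Hsd11b1, the heat-shock genes Hspa1a and Hspa1b, and Cxcl14, and FAPs-1-like cells by the interferon-induced genes Ifit1 and Ifi203 and by Cxcl5. Mme, Enpp2 and Dlk1, which named FAPs-0-like cells, were not among the leading genes of these cells, and Dlk1 was among those of FAPs-1-like cells. Markers of the study for FAPs-0 were present in both subsets: Mme stood at 190 and 173 CPM in FAPs-0-like and at 100 and 85.2 CPM in FAPs-1-like cells, against 4.24 and 5.65 CPM in FAPs-2-like cells. Enpp2 stood at 427 and 299 CPM in FAPs-0-like and at 178 and 136 CPM in FAPs-1-like cells. Dlk1 did not separate them, at 138 and 140 CPM in FAPs-0-like and 128 and 167 CPM in FAPs-1-like cells.

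The KO library was lower for Hsd11b1 in these subsets. The log2 ratio was -0.68 (-0.84 to -0.53) in FAPs-0-like cells, past 1.5-fold, -0.43 (-0.62 to -0.24) in FAPs-1-like cells, and -0.52 (-0.64 to -0.40) in both together. With the subsets redrawn without integration of the libraries, FAPs-0-like cells had 214 and 194 CPM and a ratio of -0.14 (-0.26 to -0.01), so the size of the difference, and the call, depended on how the subset was drawn. In FAPs-4-like as in FAPs-6-like cells, where levels were low, it was 0.89 (0.00 to 1.86) and 0.66 (-0.02 to 1.36), and FAPs-2-like and FAPs-3-like cells had too few UMIs for a call. The FAPs-6-like value was 0.35 with cell types clustered at resolution 0.4 and FAP-like subsets at 0.8. FAPs-4-like cells fell under 50 UMIs in 4 of 7 other settings. Fewer cells also carried the transcript: at least 1 Hsd11b1 UMI was seen in 56.9% of FAPs-0-like cells in WT and 47.8% in KO, and after thinning every cell to 1000 UMIs, which left out 1 shallower cell in each library, in 25.8% (20.8 to 31.3) and 16.8% (13.1 to 20.9). In endothelial-like cells, taken as the background of free RNA, the same shares were 0.67% and 0.838% before and 0.079% in each library after thinning, with 76 and 46 cells left out. Median depth was 6616 and 8025 UMIs in FAPs-0-like and 4370 and 4036 in endothelial-like cells. Heat-shock transcripts stood apart in the same cells, Hspa1a being at 639 CPM in WT and 4658 CPM in KO in FAPs-0-like cells, and their part in the Hsd11b1 ratio was not tested. H6pd, whose product supplies the reductase with NADPH, was also higher here, at 58.4 and 39.0 CPM in FAPs-0-like cells against 20.1 and 19.1 CPM in other FAP-like cells.

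**Figure D2:**
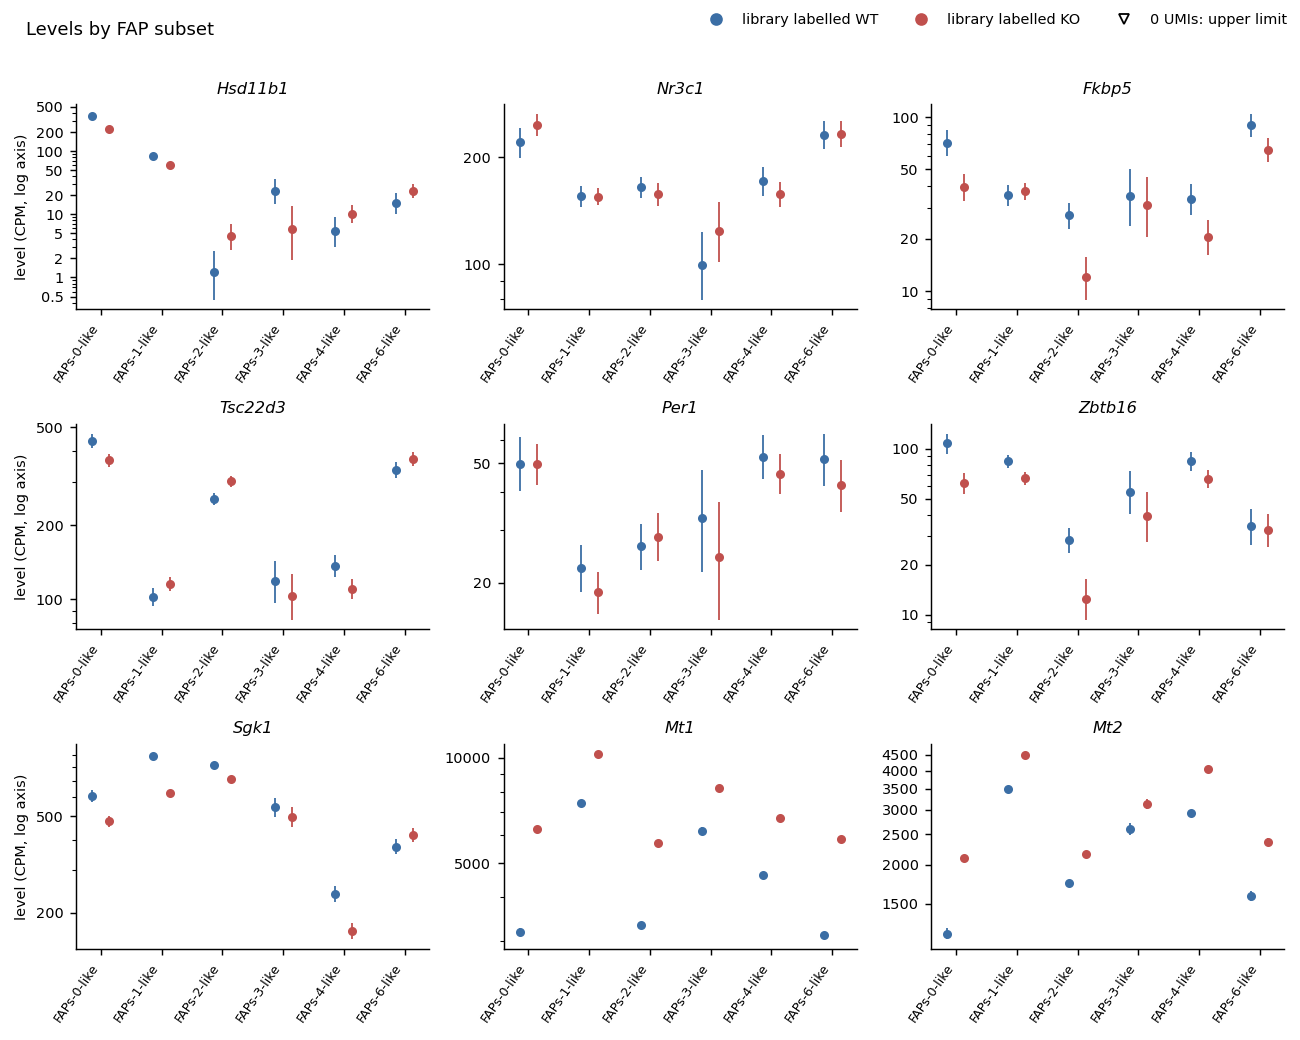
Level (CPM, log axis) of the 9 genes in the FAP-like subsets, WT and KO, with 95% Poisson intervals as bars. Hsd11b1 in WT is 362 CPM in FAPs-0-like cells, 5.52 CPM in FAPs-4-like cells and 1.21 CPM in FAPs-2-like cells, which are led by tendon genes.

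The receptor gene Nr3c1 was present in every type and differed little between libraries. It stood at 173 CPM (167 to 179) in WT and 176 CPM (171 to 182) in KO FAP-like cells, for a log2 ratio of 0.02 (-0.04 to 0.09). T-like cells were highest, at 570 and 752 CPM, followed in WT by endothelial-like cells at 260 CPM and pericyte-like and smooth muscle-like cells at 234 CPM each. Schwann-like cells had 199 and 196 CPM, macrophage-like 131 and 121 CPM, MuSC-like 129 and 121 CPM, and dendritic-like cells were lowest at 53.5 and 52.7 CPM. The intervals of pericyte-like and smooth muscle-like cells overlapped, as did those of macrophage-like and MuSC-like cells. Its ratio was past 1.5-fold in 0 of 9 types and ran from -0.11 in macrophage-like to 0.40 (0.14 to 0.66) in T-like cells. In FAP-like subsets it ranged in WT from 99.5 CPM in FAPs-3-like to 232 CPM in FAPs-6-like cells, and FAPs-0-like cells had 221 and 248 CPM. FAPs-1-like cells, the other subset with the enzyme, had 155 CPM in each library, so receptor transcript did not follow Hsd11b1 across both subsets.

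Fkbp5, a co-chaperone that lowers the receptor's affinity for hormone and so forms a feedback loop, was lower in KO in most types. FAP-like cells had 42.4 CPM (39.5 to 45.5) in WT and 32.8 CPM (30.5 to 35.2) in KO, a log2 ratio of -0.37 (-0.52 to -0.23). Endothelial-like cells had 14.2 and 9.20 CPM and a ratio of -0.62 (-1.07 to -0.18), and it was -0.58 (-0.97 to -0.20) in macrophage-like cells at 26.6 and 17.8 CPM, and -0.76 (-1.61 to 0.06) in Schwann-like cells. MuSC-like cells were the exception among the 6 types with enough UMIs, at 40.4 and 46.8 CPM with overlapping intervals. Of those 6 types, 5 had ratios below 0 and 2 were past 1.5-fold. Among FAP-like subsets FAPs-6-like cells were highest at 90.01 and 65.0 CPM, then FAPs-0-like at 71.2 and 39.6 CPM, and the ratio was past 1.5-fold in FAPs-0-like (-0.84), FAPs-2-like (-1.18) and FAPs-4-like cells (-0.72). The FAPs-0-like call was lost with the subsets redrawn without integration (-0.21) and with the 9 genes among the variable genes (-0.21). It was also lost with early genes left out (-0.26) and with types cut at resolution 0.4 and subsets at 0.8 (-0.49). The FAPs-4-like call was lost without integration (-0.36) and with early genes left out (-0.58). FAPs-1-like cells had 35.5 and 37.6 CPM, with a ratio of 0.08 (-0.18 to 0.35).

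Tsc22d3 encodes GILZ, a leucine zipper protein that carries part of the anti-inflammatory action of the hormone. Of the 9 types it was highest in macrophage-like cells, at 417 CPM in WT and 350 CPM in KO (B-like cells, 40 and 56 in number, had 404 and 415 CPM), and lowest in MuSC-like cells, at 52.7 and 66.5 CPM. Within macrophage-like cells the Lyve1-like subset, with the marker of resident macrophages, had 914 and 732 CPM and the Trem2-like subset 306 and 296 CPM. FAP-like cells had 212 and 210 CPM, a log2 ratio of -0.01 (-0.08 to 0.05), so the libraries did not differ there by more than counting error. Endothelial-like cells had 261 and 185 CPM, a ratio of -0.49 (-0.59 to -0.40), and Schwann-like cells 175 and 102 CPM, a ratio of -0.78 (-1.16 to -0.42). T-like cells went the other way, at 136 and 281 CPM and a ratio of 1.05 (0.56 to 1.55) from 52 and 112 UMIs.

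Per1, a clock gene with direct input from the receptor, had similar levels in both libraries in most types. FAP-like cells had 35 and 32.1 CPM, endothelial-like 61.7 and 62.0 CPM, macrophage-like 44.5 and 41.7 CPM, and pericyte-like 74.5 and 77.2 CPM, all with ratios within counting error of 0. Smooth muscle-like cells were highest in WT at 149 CPM and had 77.6 CPM in KO, a log2 ratio of -0.94 (-1.52 to -0.37) from 68 and 44 UMIs. Haemoglobin transcripts in those cells were at 120 CPM in WT and 20572 CPM in KO, and their part in the Per1 ratio was not tested. T-like cells had 68.0 and 105 CPM, past 1.5-fold with an interval that includes 0. In MuSC-like cells, from 62 and 71 UMIs, KO was higher inside 1.5-fold with an interval above 0.

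Zbtb16 encodes PLZF, a zinc finger repressor that responds slowly and strongly to glucocorticoid in many cells. It was at 63.7 CPM (60.0 to 67.4) in WT and 51.0 CPM (48.1 to 54.1) in KO FAP-like cells, for a log2 ratio of -0.32 (-0.44 to -0.20). Levels in endothelial-like cells were 26.6 CPM (23.2 to 30.4) and 9.98 CPM (7.88 to 12.5), a ratio of -1.41 (-1.81 to -1.03). Haemoglobin transcripts in these cells were at 1195 and 5238 CPM and the 17 immediate-early and heat-shock genes at a summed 31895 and 39878 CPM, and their part in this ratio was not tested. Pericyte-like cells, which also carried endothelial markers at a summed 5149 and 5668 CPM, had 40.2 and 21.2 CPM and a ratio of -0.92 (-1.26 to -0.59). MuSC-like cells were the other way round, at 47.9 CPM (38.5 to 58.9) and 90.9 CPM (76.2 to 108), a ratio of 0.93 (0.53 to 1.33). T-like cells were the highest of the 9 types in WT, at 110 CPM, with a ratio of -1.75 from 42 and 13 UMIs. Among the 7 types with enough UMIs, 3 were past 1.5-fold lower and 1 higher. FAPs-0-like cells had 108 and 62.2 CPM, FAPs-1-like 84.0 and 66.4 CPM, FAPs-4-like 84.6 and 66.2 CPM, and FAPs-2-like 28.0 and 12.5 CPM. The FAPs-0-like ratio was -0.80 (-1.09 to -0.51), and it was inside 1.5-fold with the 9 genes among the variable genes (-0.49) and with early genes left out (-0.50).

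**Figure D3:**
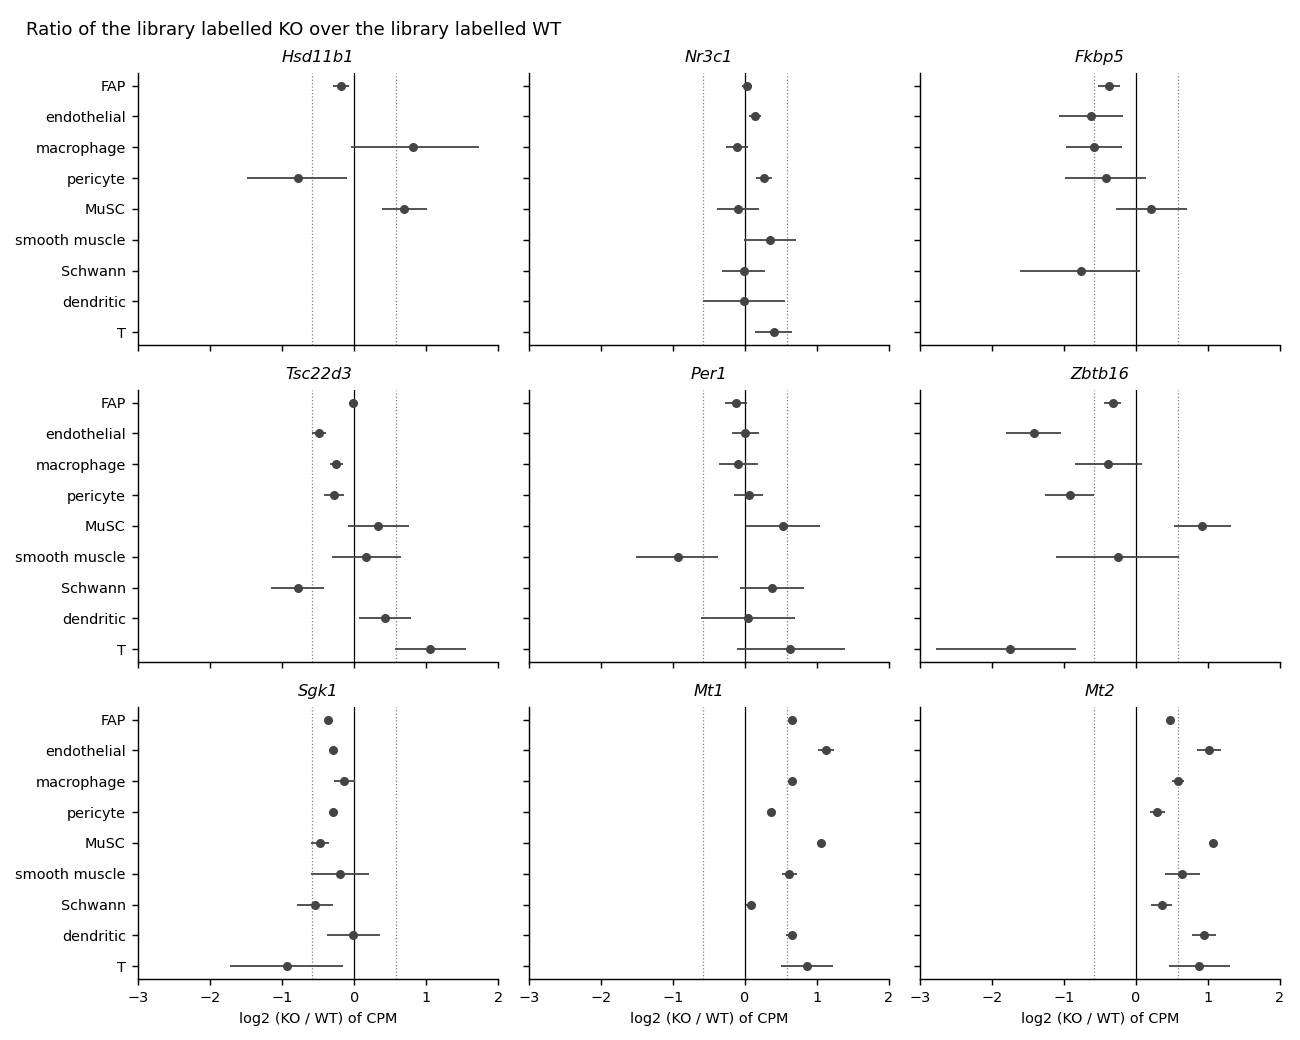
Log2 ratio of KO over WT for each of the 9 genes in the 9 cell types, with the 95% interval for counting error as a bar, a solid line at 0 and dotted lines at 1.5-fold, for types with at least 50 UMIs of the gene. Mt1 and Mt2 lie above 0 and Sgk1 below 0 in every type shown, while Zbtb16 lies on both sides.

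Sgk1, a kinase induced by serum and by glucocorticoid that acts on ion channels and on FOXO factors, was abundant in stromal and vascular cells. It stood at 667 CPM (655 to 679) in WT and 517 CPM (508 to 527) in KO FAP-like cells, for a log2 ratio of -0.37 (-0.40 to -0.33). Endothelial-like cells were highest, at 1210 and 982 CPM, then pericyte-like cells at 822 and 672 CPM and MuSC-like cells at 801 and 574 CPM. The part of endothelial RNA in the pericyte-like level was not tested. Macrophage-like (142 and 129 CPM), dendritic-like (123 and 122 CPM) and T-like cells (110 and 57.6 CPM) were lowest. The ratio was below 0 in 9 of 9 types, its interval lay below 0 in 6, and 1, T-like cells, was past 1.5-fold. FAP-like subsets were less uniform: FAPs-1-like cells had 886 and 622 CPM, FAPs-4-like 239 and 168 CPM, but FAPs-6-like cells had 375 and 419 CPM, a ratio of 0.16 (0.02 to 0.30) that was -0.06 both without integration and at resolution 0.4. In Lyve1-like macrophages Sgk1 was 119 and 59.0 CPM, a ratio of -1.01 (-1.53 to -0.50), against 109 and 111 CPM in Trem2-like macrophages. Lyve1-like macrophages also had the haemoglobin gene Hbb-bs at 27.5 and 1924 CPM, Jun at 4001 and 2101 CPM and Fos at 2881 and 1591 CPM, and the part of these in the Sgk1 ratio was not tested.

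Mt1 and Mt2, small zinc-binding proteins, were the most abundant of the 9 genes and were higher in KO. In FAP-like cells Mt1 was 4885 CPM (4853 to 4917) in WT and 7693 CPM (7657 to 7729) in KO, a log2 ratio of 0.66 (0.64 to 0.67), and Mt2 was 2435 and 3371 CPM, a ratio of 0.47 (0.45 to 0.49). MuSC-like cells had the largest difference in CPM of the 9 types, with Mt1 at 4025 and 8392 CPM and Mt2 at 2682 and 5622 CPM, ratios of 1.06 and 1.07. In endothelial-like cells, where levels were low, Mt1 was 124 and 270 CPM and Mt2 54.3 and 110 CPM, ratios of 1.12 and 1.02. Macrophage-like cells had Mt1 at 2401 and 3786 CPM and Mt2 at 362 and 546 CPM. Schwann-like cells differed least for Mt1, at 3000 and 3183 CPM, a ratio of 0.09 (0.01 to 0.16), and pericyte-like cells least for Mt2, at 258 and 318 CPM. Mt1 was past 1.5-fold higher in 7 of 9 types and Mt2 in 6, and the interval of each lay above 0 in all 9. FAP-like cells held 69.8% of Mt1 UMIs in WT and 73.2% in KO, and 77.8% and 78.8% of Mt2 UMIs. The sum of 6 FAP markers was higher in KO in macrophage-like (2622 and 3406 CPM) and smooth muscle-like cells (3068 and 5660 CPM). It was lower in KO in endothelial-like (715 and 555 CPM), pericyte-like (1125 and 786 CPM) and MuSC-like cells (4384 and 3981 CPM). The part of FAP RNA in the metallothionein ratios of other types was not tested.

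The subsets of FAP-like cells shared the direction for Mt1. FAPs-1-like cells had the most, at 7434 and 10220 CPM, and FAPs-0-like cells 3191 and 6274 CPM, with log2 ratios of 0.46 and 0.98. FAPs-2-like cells had 3337 and 5725 CPM and FAPs-6-like cells 3111 and 5879 CPM, ratios of 0.78 and 0.92. The 3 subsets with the least Mt1 in WT had the 3 largest ratios, which is a description only, since the WT level is the ratio's denominator. The difference was spread over cells: thinned to 1000 UMIs a cell, the median FAP-like cell carried 3 Mt1 UMIs in WT (quartiles 1 and 7; 2080 cells) and 6 in KO (3 and 11; 2498 cells), and 2 and 3 Mt2 UMIs. Cells with at least 1 Mt1 UMI at that depth made up 82.9% of WT and 90.5% of KO FAP-like cells, against 8.52% and 18.9% of endothelial-like cells, a share that itself differed between libraries. Immediate-early and heat-shock genes were also higher in KO, the sum of 17 being 19375 and 27124 CPM in FAP-like cells and 16798 and 29037 CPM in MuSC-like cells, and their part in the metallothionein ratios was not tested.

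**Figure D4:**
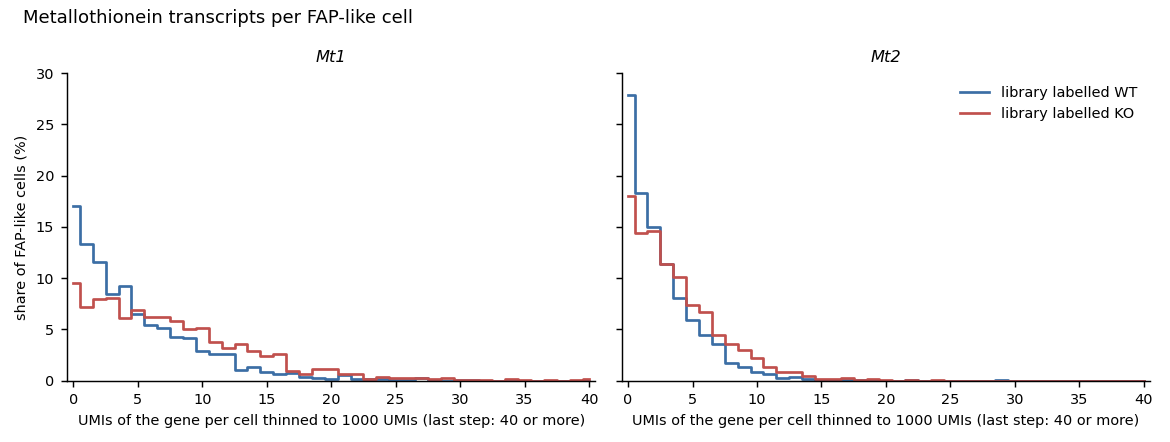
Share of FAP-like cells (percent) by the number of Mt1 or Mt2 UMIs after thinning each cell to 1000 UMIs, WT and KO. The KO library has a smaller share of cells at each number from 0 to 4 Mt1 UMIs, with a median of 6 UMIs against 3.

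The members past 1.5-fold were set against all genes of the same comparison. In FAP-like cells 1 member, Mt1, was past the fold higher, against 4.12% of 12083 genes, and 0 lower, against 5.98%. Without FAPs-2-like cells the Mt1 ratio was 0.575, just inside 1.5-fold, and 0 members were called. In FAPs-0-like cells Mt1 and Mt2 were higher, against 4.56% of genes, and Hsd11b1, Fkbp5 and Zbtb16 lower, against 8.28%, where the median ratio of all genes was -0.11. With the subsets redrawn without integration 4 of these 5 calls were lost, Mt1 being at 0.40, Mt2 at 0.18, Hsd11b1 at -0.14 and Fkbp5 at -0.21, while Zbtb16 stayed past the fold at -0.60 and Tsc22d3 went from -0.26 to 0.27. Endothelial-like cells had Mt1 and Mt2 higher (4.32% of genes) and Fkbp5 and Zbtb16 lower (3.66%), and macrophage-like cells had Hsd11b1, Mt1 and Mt2 higher (5.2%) and none lower (6.37%). MuSC-like cells had 4 higher, namely Hsd11b1, Zbtb16, Mt1 and Mt2, but there 13.0% of all genes were past the fold higher, and 0 lower, against 9.89%. Pericyte-like cells had Hsd11b1 and Zbtb16 lower (4.06%), Schwann-like cells Fkbp5 and Tsc22d3 lower (5.66%) and 0 higher (6.67%), smooth muscle-like cells Mt1 and Mt2 higher (7.24%) and Per1 lower (10.8%), and dendritic-like cells Mt1 and Mt2 higher (9.54%) and 0 lower (7.77%). T-like cells, the smallest type, had Tsc22d3, Per1, Mt1 and Mt2 higher (9.02%) and Zbtb16 and Sgk1 lower (12.3%). FAPs-2-like cells had Mt1 higher (7.61%) and Fkbp5 and Zbtb16 lower (4.14%), FAPs-4-like cells Hsd11b1 higher (4.33%) and Fkbp5 lower (5.33%), and FAPs-6-like cells Hsd11b1 and Mt1 higher (4.77%) and 0 lower (5.13%). In FAPs-1-like cells 0 members were past the fold, against 5.39% of genes higher and 9.93% lower, and in FAPs-3-like cells 0, against 6.94% and 7.21%. FAPs-0-like and FAPs-1-like cells joined also had 0, against 4.45% and 8.09%. Lyve1-like macrophages had Mt1 and Mt2 higher (7.69%) and Fkbp5 and Sgk1 lower (7.78%), and Trem2-like macrophages had Mt1 and Mt2 higher (5.06%) and 0 lower (6.74%).

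FAPs-0-like cells also differed from the other FAP-like cells in the response genes, but for 4 of them the direction depended on how the subset was drawn. Past 1.5-fold higher in FAPs-0-like cells were 5 members in WT, against 19.6% of genes, and 4 in KO, against 13.2%. In WT these were Hsd11b1, Fkbp5, Tsc22d3, Per1 and Zbtb16, and in KO Hsd11b1, Nr3c1, Tsc22d3 and Per1. Hsd11b1 is a marker the study lists for FAPs-0. Nr3c1 was 0.40 in WT and 0.59 (0.47 to 0.70) in KO, just past the fold. Past it lower were 2 in WT, Mt1 and Mt2, against 11.5%, and 1 in KO, Mt2, against 10.7%. Fkbp5 and Zbtb16 were past the fold higher in WT, at log2 ratios of 0.86 and 0.88, and inside it in KO, at 0.32 and 0.34. Against FAP-like cells other than FAPs-2-like, Zbtb16 was 0.58, just inside the fold, in WT and 0.07 in KO. Tsc22d3 was higher in FAPs-0-like cells at 1.24 in WT and 0.99 in KO, Per1 at 0.59 and 0.77, and Mt1 and Mt2 were lower in WT at -0.67 and -1.10. With FAPs-0-like and FAPs-1-like cells joined, Tsc22d3 became -0.28 and -0.34, Per1 -0.40 and -0.43, Mt1 0.71 in WT and Mt2 0.47 and 0.39, so no direction is given for these 4 genes. In the joined subsets 3 members, Hsd11b1, Zbtb16 and Mt1, were past the fold higher in WT, against 9.04% of genes, and 2, Hsd11b1 and Zbtb16, in KO, against 5.43%, with 0 lower, against 10.9% and 11.5%. Zbtb16 stood there at 0.98 in WT and 0.81 in KO.

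Other genes of the same pathways in FAP-like cells were counted by list, beside a median log2 ratio of -0.03 over all genes, of which 4.12% were past 1.5-fold higher and 5.98% lower. Of 7 genes of steroid handling tested 0 were past 1.5-fold, with a median of 0.19, and H6pd stood at 24.1 and 21.9 CPM. Of 11 receptor chaperones and cofactors 2 were higher, Hsp90aa1 at 1940 and 3021 CPM and Stip1 at 47.2 and 71.6 CPM, and the list's median was 0.07. Among 19 tested of 21 other glucocorticoid-inducible genes, 3 were higher and 2 lower, with a median of -0.07. The higher ones were Cebpd (886 and 1683 CPM), a transcription factor of early adipogenesis, Angptl4 (24.9 and 41.6 CPM), an inhibitor of lipoprotein lipase, and Il1r2 (4.08 and 9.08 CPM), the interleukin-1 decoy receptor. The lower ones were Ddit4 (19.4 and 7.20 CPM), an inhibitor of mTORC1, and Klf15 (2.92 and 1.62 CPM), while Klf9 at 650 and 620 CPM and Errfi1 at 666 and 768 CPM were inside the fold. The inducible genes thus lay on both sides, and their median was near that of all genes.

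The metal list and the clock list went with Mt1 and Per1 only in part. Of 6 genes on the metal list 0 were higher and 2 lower. These 2 were the zinc exporter gene Slc30a1 at 20.01 and 10.8 CPM and Mt3 at 33.2 and 10.1 CPM. Both lay on the opposite side of WT from Mt1, and whether metal induces each listed gene in these cells was not tested. Mt3 was read mainly in FAPs-2-like cells, at 118 and 51.6 CPM from 585 and 219 UMIs. Without that subset Mt3 had too few UMIs for a call. Of 13 clock genes 4 were lower, among them Nr1d1 at 87.8 and 55.7 CPM, Arntl at 36.5 and 23.3 CPM and Cry1 at 23.1 and 14.04 CPM, with a median of -0.18. The cytokine list had 5 of 6 genes higher and a median of 0.93, with Il6 at 145 and 511 CPM and Socs3 at 534 and 869 CPM. The immediate-early and heat-shock list had 8 of 17 higher and a median of 0.50, with Hspa1b at 433 and 1692 CPM. In MuSC-like cells, where 13.0% of all genes were past the fold higher and 9.89% lower, 2 of 4 metal genes tested were higher and 1 lower, and 2 of 3 of steroid handling were higher. Chosen after their values were seen, the zinc importer gene Slc39a14 was there at 151 and 335 CPM, Slc30a1 at 30.7 and 18.3 CPM, and Nr3c2, the mineralocorticoid receptor gene, at 24.8 and 63.8 CPM.

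**Figure D5:**
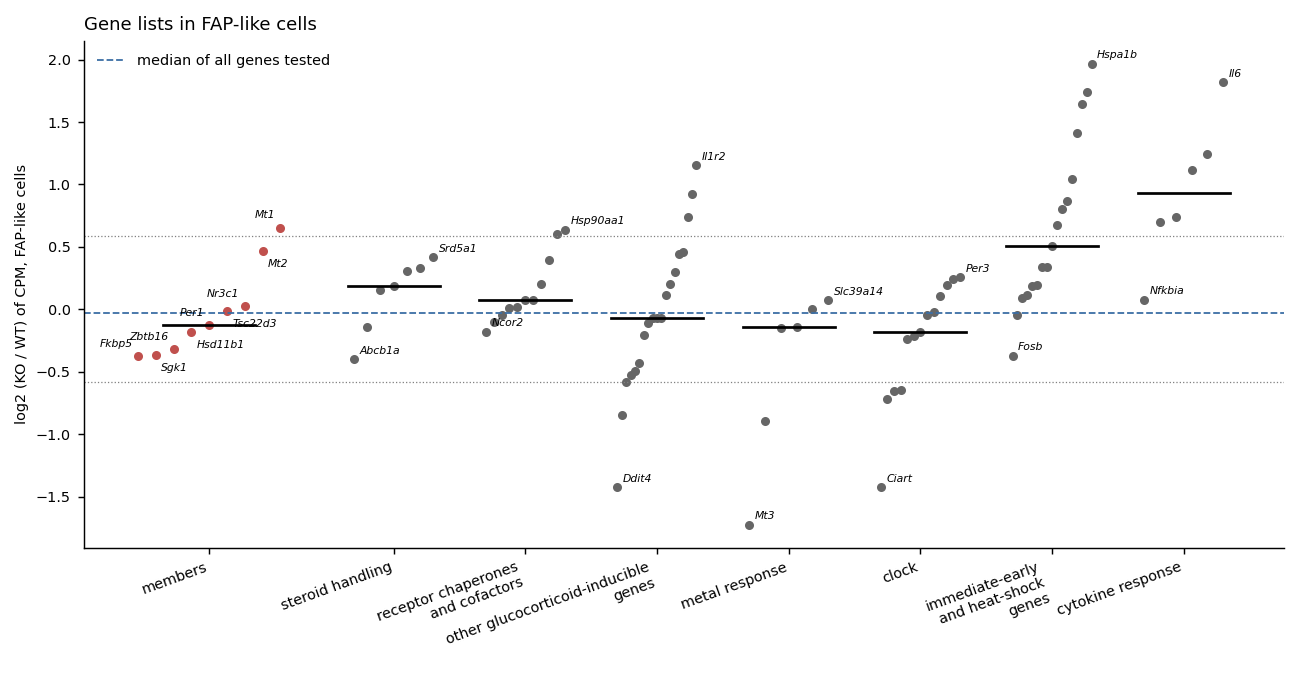
Log2 ratio of KO over WT in FAP-like cells for the 9 genes (red) and the genes of each list (grey), a point per gene with at least 50 UMIs, with bars at list medians, dotted lines at 1.5-fold and a dashed line at the median of all genes. The cytokine list and the immediate-early and heat-shock list lie mostly above 0, and the glucocorticoid-inducible list lies on both sides of 0.

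Genes with the most similar pattern were named by Pearson's r of log2(CPM + 10) over 18 points, the 9 types in both libraries, among 12205 genes. These are descriptions, since the points share libraries and depth. Hsd11b1 was closest to Hmcn2 (0.910), Gm34006, Igdcc4, Zim1 and Gxylt2 (0.885), Nr3c1 to Zfp292 (0.936) and Tsc22d3 to Glmp (0.892). Per1 was closest to Rnf123 (0.886), Zbtb16 to Il1r1 (0.860) and Sgk1 to Cdkn1c (0.940). Mt1 was closest to Cd302 (0.917) and then to Mt2 (0.897), and Mt2 to Srxn1 (0.913) and then to Mt1, while no other member was among the 5 genes closest to any of the 9.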

How the data were processed

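Single-cell RNA-seq (10x Chromium 5′ kit v2) had been made from 2 libraries, 1 per genotype. Per the submitters' processing notes, reads were handled with Cell Ranger 2.1.1 on mm10, and the study's methods name another Cell Ranger version, Seurat, DoubletFinder, a filter on mitochondrial share and Harmony. The authors deposited 1 table of 19169 genes by 13432 cells as the natural log of 1 plus UMIs per 10000 in each cell. The barcode suffix gave the library, as the series' design text states. Whole UMIs were recovered from these values: of 29528482 values above 0 the largest distance from a whole UMI was 0.254. The recovered UMIs were summed by type and library.

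In-house code computed 2000 variable genes without the 9 members, 30 principal components and 20 neighbors. The libraries were integrated by an in-house version of the Harmony method, and cells were clustered with igraph 0.11.9 at resolution 0.8. Clusters were named from marker lists, and FAP-like and macrophage-like cells were clustered again. For FAP-like cells the resolution was raised until the study's number of FAP subgroups was reached, at 0.3. A type needed 50 cells in each library. Scrublet marked 101 and 109 cells, which were kept, as were the 686 and 633 cells under 1000 UMIs. Levels are summed UMIs per 1000000 with exact Poisson intervals at 95%, and ratios carry exact binomial intervals (scipy 1.17.1). The intervals cover counting error only. The recovery of UMIs and the ratio step were tested on simulated data. No test of genotype is possible with 1 library a group. Genes of the pathway lists were named where past 1.5-fold in FAP-like cells or among the list's highest levels, and those named in MuSC-like cells were chosen after their values were seen. The members and lists were chosen with earlier results of these data known. Promoters are RefSeq sequence, GRCm38.p6, for 7 of the 9 members. Windows of Nr3c1 and Zbtb16 and the position of Nr3c1 are not used here. Other scalings, cell filters, thresholds, resolutions and no integration were tried as alternatives. 0 columns of other series were used. The gene most like Fkbp5 in pattern is not reported here.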

Additional observations from a re-analysis of the deposited data

Results flagged for a closer look

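In 3 genes the log2 ratio of KO over WT had opposite signs, past 1.5-fold with intervals on either side of 0, in different cell types. Hsd11b1 was 0.70 in MuSC-like and -0.79 in pericyte-like cells. Tsc22d3 was 1.05 in T-like and -0.78 in Schwann-like cells. Zbtb16 was 0.93 in MuSC-like cells and -1.41 in endothelial-like, -0.92 in pericyte-like and -1.75 in T-like cells. The difference between types was not tested in any of the 3, since each genotype is 1 library, and T-like cells numbered 81 and 86.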

How the results depend on the processing

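No paired analysis was possible because each genotype is 1 library, which also leaves no library to leave out. Across 44 results that compare KO with WT and 444 recomputed values, 437 kept their direction, 416 stayed within the counting interval and 28 fell outside it, with 0 called values reversed. Averaging UMIs per 10000 over single cells gave Sgk1 -0.44 and Mt2 0.49 in FAP-like cells, Zbtb16 -1.92 in endothelial-like cells, and an Hsd11b1 level in FAP-like cells of 80.3 in WT and 70.3 in KO. A median-ratio size factor gave Mt1 0.68 and Mt2 0.50 in FAP-like cells. At 2-fold, 0 members were called higher in FAP-like cells. With FAPs-2-like cells left out, chosen after seeing the data, FAP-like cells gave Mt1 0.575, Mt2 0.44 and 0 members higher, and Hsd11b1 at 90.9 and 70.9 CPM. KO over WT in FAPs-0-like cells kept its direction in 76 of 81 values and fell outside the interval in 32. Hsd11b1 there was -0.53 by the mean over cells, -0.14 without integration, -0.53 with early genes also left out and -0.52 joined with FAPs-1-like cells.

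The comparison of FAPs-0-like with other FAP-like cells depended on the clustering: of 180 values, 136 kept their direction, 86 fell outside the interval and 26 called values reversed. For Hsd11b1 the log2 ratio in WT and KO was 3.13 and 2.55 by the mean over cells. It was 2.76 and 1.97 with types cut at resolution 0.4 and subsets at 0.8, and 3.13 and 2.48 with types cut at 1.2. It was 4.24 and 3.75 without integration, and 4.42 and 3.08 with the 9 genes allowed among the variable genes. It was 2.98 and 2.52 with FAPs-2-like cells left out, 4.58 and 3.44 with early genes also left out and 4.50 and 3.30 with FAPs-0-like and FAPs-1-like cells together, all 3 chosen after seeing the data. The reversed values in WT for Tsc22d3, Per1, Mt1 and Mt2, in that order, were -0.045, -0.27, 0.84 and 0.66 without integration, -0.38, -0.40, 0.64 and 0.40 with the 9 genes allowed, -0.22, -0.31, 0.66 and 0.42 with early genes left out, and -0.28, -0.40, 0.71 and 0.47 together. In KO, Mt2 was 0.21 without integration. Tsc22d3, Per1 and Mt2 in KO were -0.32, -0.44 and 0.32 with the 9 genes allowed, -0.22, -0.35 and 0.33 with early genes left out, and -0.34, -0.43 and 0.39 together. FAPs-0-like cells numbered 288 in WT and 383 in KO in the main setting, and 665 and 721 without integration. They numbered 906 and 1297 with the 9 genes allowed and 952 and 1286 with early genes left out, near the 940 and 1264 joined cells. The reversed values thus came from larger sets of cells than in the main setting, and their cause was not tested. Depth limits Hsd11b1 outside FAP-like and MuSC-like cells, where a type held at most 47 of its UMIs in a library.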
